A study of Malus domestica with 6 samples.

Results

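The genes expressed in Granny Smith only were 138 of the 46558 genes (0.296%) listed for apple pulp, and they were chosen by their values in the 6 libraries. A gene was a member when it reached at least 1 FPKM in each of the 3 Granny Smith libraries and averaged below 0.05 FPKM over the 3 Jonagold libraries. By definition, FPKM divides the fragments assigned to a gene by its transcript length and by the size of the library. It is meant as a level corrected for transcript length and sequencing depth. None of the 94 genes that the study tabulated for the pathways of aroma synthesis met both conditions, so 0 genes had to be left out. Members made up 0.729% of the 18928 genes with at least 1 FPKM in every Granny Smith library.

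The study set out to compare gene expression between cultivars that differ in aroma. The groups were green-skinned Granny Smith and red-striped Jonagold, both unbagged, grafted on the same rootstock and harvested fully ripe. Each of the 3 libraries per cultivar came from pulp, separated from the peel and pooled over several fruits, so a library describes a pool and not a single apple. Each cultivar was sampled at 1 stage and 1 orchard, so cultivar, ripening state and growing conditions specific to its trees cannot be told apart. Bulk RNA also does not tell fewer cells of a type from less RNA per cell.

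As background, apple cultivars are propagated as clones, so trees of a cultivar share a genome while different cultivars carry different alleles and different sets of gene copies. The apple genome holds many duplicated stretches, and genes of related function often lie side by side as tandem copies. Reads of both cultivars were assigned to gene models of a single reference genome, derived from Golden Delicious, which is a parent of Jonagold. A value of 0 therefore says that no read was assigned to a gene model. An absent gene, a diverged sequence and a gene that was not transcribed give the same 0 and cannot be told apart from these values. In the study's mapping counts, every Jonagold library had a smaller share of its reads mapped than any Granny Smith library. Whether this bears on the zeros in Jonagold was not tested. The expression values are listed by identifier alone. The study's tables name genes of aroma pathways, and none of the 138 members is among them, so the members' functions are not given here and the labelled tissue was not checked against marker genes. The identifiers give the chromosome and the order of the genes along it, except for genes on unplaced sequence.

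The deposited FPKM values were whole numbers of reads multiplied by 1 factor per library and 1 per gene, and reads and transcript lengths were recovered for 34278 of the 34279 genes above 0. A read here is the unit the authors counted, which may be a read pair. The Granny Smith libraries held between 17210275 and 17383063 recovered reads, and the Jonagold libraries held between 14336921 and 16522440. The library sizes implied by the FPKM values lay between 1.99e+07 and 2.11e+07 in Granny Smith, above the recovered reads. In Jonagold they lay between 1.36e+07 and 1.55e+07, below the recovered reads. The values were thus not scaled by the recovered reads alone, and the origin of this scaling was not tested. In a transcript of 1000 bases, 1 read was worth between 0.0473 and 0.0502 FPKM in the Granny Smith libraries and between 0.0646 and 0.0733 FPKM in the Jonagold libraries. The FPKM totals lay between 554856 and 599617 in Granny Smith and between 755644 and 800812 in Jonagold. Near the Jonagold ceiling, a member's place thus rested on a handful of reads.

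The members were quiet or silent in Jonagold down to single reads. Over all 138 members, 11880, 14331 and 14256 reads were assigned in the 3 Granny Smith libraries, against 25, 37 and 30 reads in the 3 Jonagold libraries. As a share of a library's reads, members took between 0.0683% and 0.0828% in Granny Smith and between 0.000168% and 0.000224% in Jonagold. No read at all was found in any Jonagold library for 88 members. Of the other 50 members, 22 had 1 Jonagold read, 17 had 2, 8 had 3 and 3 had 4. No member had reads in all 3 Jonagold libraries, and the most that any member had in a single Jonagold library was 4 reads. These Jonagold reads were spread over the libraries: 16, 26 and 21 members had at least 1 read in Jonagold 1, 2 and 3.

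The differences between the cultivars were what the selection used, so they are given as sizes with no test. For the 88 members with 0 Jonagold reads, only a lower bound could be given, set against a floor of 3 reads over the Jonagold group. The bounds ran from at least 1.62-fold to at least 890-fold higher in Granny Smith, with a median of 26.0. They reached 10-fold for 75 of the 88 members and 50-fold for 25. For the 50 members with Jonagold reads, the ratio of Granny Smith over Jonagold ran between 28.4 and 849, with a median of 123. The lower end of the exact 95% counting interval of these ratios lay between 7.82 and 152. These limits allow for counting error of the summed reads alone and leave out the variation between libraries. In the test across all genes, 103 of the 138 members reached the minimum mean of 1 FPKM over the 6 libraries, and all 103 were called higher in Granny Smith, where 9.34% of the 20993 tested genes were called. Since the same contrast chose the members, nothing is read from this count, and the 35 members below the minimum were not tested.

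The most abundant member was MD10G1115400 on chromosome 10, with 50.6, 31.1 and 33.3 FPKM in Granny Smith and 0 in each Jonagold library. It rested on 1644, 1059 and 1148 reads in Granny Smith and 0 reads in Jonagold, so it was at least 890-fold higher in Granny Smith. Next came MD03G1247600 on chromosome 3, with 18.9, 29.4 and 21.4 FPKM in Granny Smith and 0 in each Jonagold library. These were the only members whose mean in Granny Smith reached 20 FPKM.

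MD06G1133900 on chromosome 6 had 11.1, 20.8 and 25.3 FPKM in Granny Smith, against 0, 0.0627 and 0 FPKM in Jonagold, where the middle value is a single read. Its ratio of 849 had a counting interval from 152 to 33551, since 1 read fixes the denominator poorly. MD08G1050600 on chromosome 8 was steadier, with 18.7, 15.8 and 21.7 FPKM in Granny Smith and 0 in each Jonagold library. The groups did not overlap for any member, which the selection fixed.

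The other 8 of the 12 most abundant members averaged between 9.90 and 14.0 FPKM in Granny Smith. MD05G1258200 had 10.7, 15.1 and 16.1 FPKM in Granny Smith, with no Jonagold reads, from a short transcript of 273 bases. MD13G1041700 had 6.47, 19.9 and 12.4 FPKM in Granny Smith and 0 in Jonagold. MD15G1049700 had 8.58, 16.9 and 11.0 FPKM in Granny Smith, against 0, 0.0624 and 0 in Jonagold. In all of these 3 genes Granny Smith 1 was the lowest Granny Smith library. MD17G1209000 had 14.6, 9.18 and 11.3 FPKM in Granny Smith with no Jonagold reads, and MD01G1037800 had 13.7, 9.42 and 11.5 FPKM in Granny Smith and 0 in Jonagold. In this pair of genes Granny Smith 1 was instead the highest library.

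Stable and unstable members stood side by side at similar levels. MD15G1413900 had 12.5, 11.2 and 11.4 FPKM in Granny Smith, against 0, 0.144 and 0 in Jonagold. MD00G1099900, on an unplaced sequence, had 10.1, 9.69 and 9.87 FPKM in Granny Smith and 0 in Jonagold. MD04G1164500 had 2.13, 15.6 and 12.2 FPKM in Granny Smith, against 0, 0.0398 and 0.0451 in Jonagold. Its Granny Smith 1 value stood apart from the other two, and its coefficient of variation over the Granny Smith libraries, the standard deviation as a percent of the mean, was 70.1%.

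**Figure D1:**
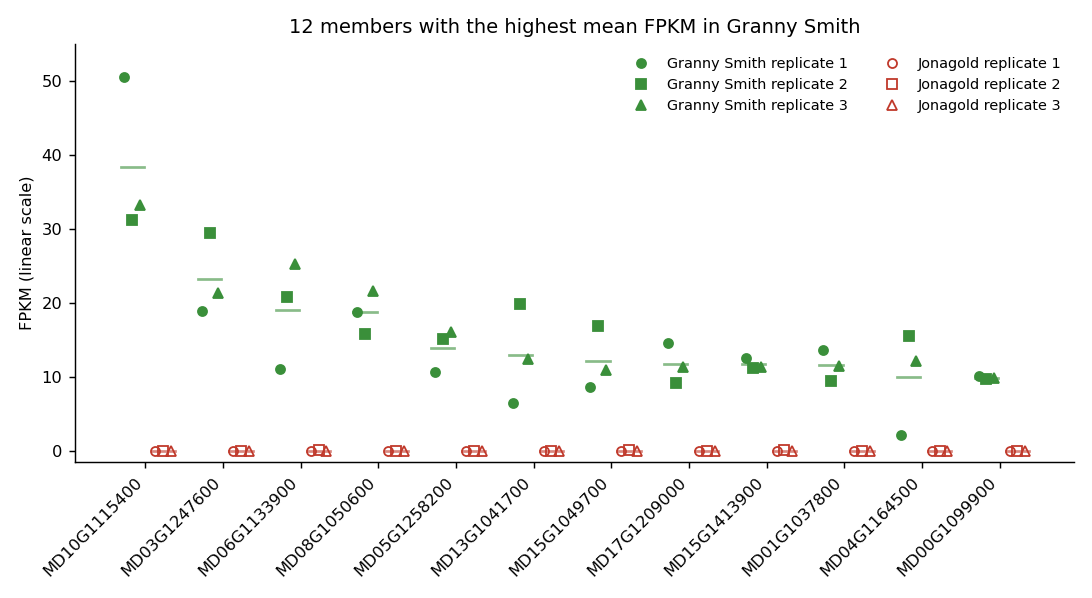
FPKM (vertical axis, linear) of the 12 members with the highest mean in Granny Smith, with 1 filled mark per Granny Smith library on the left of each gene, 1 open mark per Jonagold library on the right, and bars for the means. Every Granny Smith mark lies at 2.13 FPKM or above, and every Jonagold mark lies at or next to 0.

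Most members were expressed at low levels in Granny Smith. Their mean ran between 1.12 and 38.3 FPKM with a median of 2.69 FPKM, against a median of 8.90 FPKM over the other 18790 genes with at least 1 FPKM in every Granny Smith library. A mean under 2 FPKM was found in 35 members, 2 to 5 FPKM in 73, 5 to 10 FPKM in 20, 10 to 20 FPKM in 8 and more in 2. Members formed 2.15% of the Granny Smith-expressed genes with means under 2 FPKM and 0.0398% of those at 20 FPKM or more. The Jonagold ceiling acts in the same direction on this comparison, because it is an absolute level, so the difference in level is a description.

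Reads behind the Granny Smith values were few for some members. The sum over the 3 libraries had a median of 168.5 reads per member and ran between 7 and 3851. In 125 members every Granny Smith library held at least 10 reads, and in the other 13 members at least 1 library held fewer. The fewest reads were recovered for the shortest transcripts, singled out after their values were seen. Recovered reads and lengths can both be too low by a divisor that a gene's libraries share, so those of the next 3 genes may be underestimates. MD14G1104800, with 86 bases, had 1.75, 1.12 and 1.10 FPKM in Granny Smith from 3, 2 and 2 reads, and 0 reads in Jonagold. Its bound of 1.62-fold was the lowest of all members. MD14G1057400, with 72 bases, had 5, 3 and 2 reads in Granny Smith and 0 in Jonagold. MD01G1056500, with 54 bases, had 2, 4 and 5 reads in Granny Smith and 0 in Jonagold. At this depth, silence in Jonagold was barely detectable for these 3 genes.

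The members' transcripts were short. The recovered length had a median of 947.5 bases, from 54 to 4067, against 1615 bases over the other Granny Smith-expressed genes. Below 500 bases lay 32 members, or 3.83% of the 835 Granny Smith-expressed genes of that length. At 2000 bases or more lay 16 members, or 0.247% of 6465 such genes. Length also bears on the rule, since a single Jonagold read in a short transcript exceeds the ceiling while several reads in a long one do not. Between the members' own quartiles of level, the 68 members there had a median length of 918 bases and the 4239 other genes a median of 1629 bases. The longest member, MD00G1002000, had 1.78, 1.18 and 1.87 FPKM in Granny Smith, against 0, 0.0318 and 0 in Jonagold. The genes expressed in Jonagold only by the mirrored rule had a median length of 983 bases, close to that of the members.

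The members also varied more between Granny Smith libraries than other genes did, a measure that the rule did not rank by. Their median coefficient of variation was 23.0%, against 12.6% over the other Granny Smith-expressed genes. The highest and the lowest library were over 2-fold apart in 29 members (21.0%), against 5.68% of the other genes. At like levels, between the members' quartiles, the medians were 23.5% for members and 16.9% for other genes, and 25.0% of members against 11.2% of other genes were over 2-fold apart. Members at or above their median read sum had a median coefficient of 21.6%, and those below it 23.6%. Members are shorter than other genes of like level and so rest on fewer reads, and the part of counting error in the wider spread was not tested.

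Where members varied, Granny Smith 1 was most often the low library. Of the 29 members over 2-fold apart, 17 were lowest in Granny Smith 1, 2 in Granny Smith 2 and 10 in Granny Smith 3. The lowest library was not counted for other genes over 2-fold apart, so these counts are a description. Over all members the highest value fell in Granny Smith 1 for 35, in Granny Smith 2 for 55 and in Granny Smith 3 for 48. The share highest in Granny Smith 1 was 25.4% of members and 38.6% of the other Granny Smith-expressed genes. Besides MD04G1164500, 2 members were over 5-fold apart, named after their values were seen. MD16G1011000 had 1.22, 2.49 and 8.64 FPKM in Granny Smith with no Jonagold reads, and MD05G1000500 had 1.55, 8.30 and 3.40 FPKM in Granny Smith with 3 reads over the Jonagold libraries. In each the high value came from a different library.

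At the steady end, MD12G1189100 had 7.35, 7.41 and 7.45 FPKM in Granny Smith with no Jonagold reads, a coefficient of variation of 0.71%. MD17G1115200 had 6.85, 6.76 and 6.62 FPKM in Granny Smith, against 0, 0.0558 and 0 in Jonagold, a coefficient of 1.76%. Among members averaging 5 FPKM or more these were the most even, and MD04G1164500 and MD13G1041700, at 70.1% and 52.0%, were the least even.

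**Figure D2:**
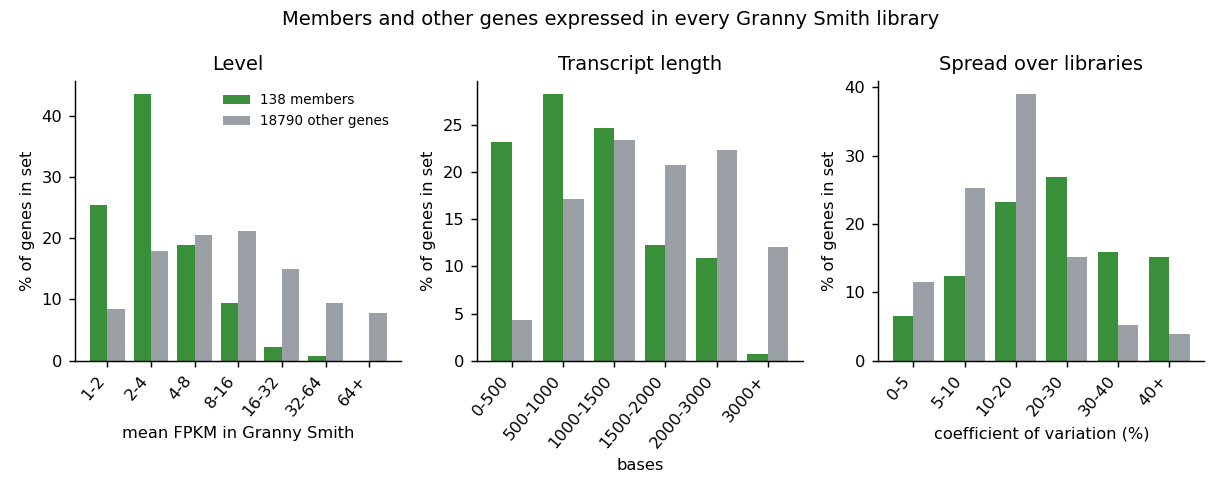
Share of genes (percent of each set, bars from 0) by mean FPKM in Granny Smith, by transcript length in bases and by coefficient of variation over the 3 Granny Smith libraries, for the 138 members (green, left bars) and the 18790 other genes with at least 1 FPKM in every Granny Smith library (grey, right bars; 1 of them has no length). The members are shifted toward low levels, short transcripts and a wider spread.

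The edges of the rule ran through a continuum of values. Just inside the Granny Smith minimum were MD15G1191800, with 1.00, 4.53 and 2.91 FPKM in Granny Smith, and MD08G1164100, with 4.14, 2.93 and 1.02 FPKM. Just outside it were MD09G1272000, with 0.999, 1.08 and 1.20 FPKM in Granny Smith and a mean of 0.0290 FPKM in Jonagold, and MD09G1219600, with 0.996, 1.74 and 1.05 FPKM in Granny Smith and 0 in Jonagold. These genes differed from members in the third digit of a single library.

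Just inside the Jonagold ceiling were MD11G1312500 and MD03G1252200, at means of 0.0495 and 0.0486 FPKM in Jonagold. Just outside it were MD05G1025100 and MD08G1186700, at 0.0526 and 0.0533 FPKM. MD03G1252200 was also among the 3 members with the most Jonagold reads, all 4 of them in Jonagold 1, beside 190, 149 and 155 reads in Granny Smith. MD09G1054400 had 70, 95 and 117 reads in Granny Smith, against 0, 2 and 2 in Jonagold. MD10G1181100 had 60, 42 and 62 reads in Granny Smith, against 1, 3 and 0 in Jonagold. Even these 3 members had at least 28.4 times the Jonagold level in Granny Smith. Beyond the ceiling, 57 further Granny Smith-expressed genes averaged between 0.05 and 0.1 FPKM in Jonagold and 421 between 0.1 and 0.5 FPKM.

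The mirrored rule, at least 1 FPKM in each Jonagold library and a mean below 0.05 FPKM in Granny Smith, held for 332 genes, more than for Granny Smith. Their mean in Jonagold had a median of 2.99 FPKM. The FPKM values of the Jonagold libraries added up to 1.32 times those of the Granny Smith libraries on average, and a read was worth more FPKM in Jonagold, which moves both thresholds against Granny Smith. With FPKM totals made equal the counts were 170 genes for Granny Smith only and 275 for Jonagold only, and with levels rebuilt from the recovered reads, an alternative chosen after seeing the data, they were 169 and 292. Scaling the libraries by the median ratio of their genes hardly changed the values, with 4476 genes called between the cultivars in place of 4475. The counts then stayed at 138 and 332, which is no separate check for that reason. Jonagold only kept the larger number in each case, and its excess shrank with equal totals and with levels from recovered reads.

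Members lay on all 17 chromosomes and among the unplaced genes. Chromosome 5 held 16 members and chromosome 9 held 15, and these were 0.486% and 0.576% of the genes listed there. Chromosomes 4 and 13 held 3 each, or 0.139% and 0.121% of their genes. Chromosome 15, with 3993 genes the longest list, held 7 members (0.175%). Among genes with at least 1 FPKM in every Granny Smith library, members made up 1.45% on chromosome 9, 1.26% on chromosome 5 and 0.281% on chromosome 13. The unplaced genes held 7 members, or 1.20% of those expressed in Granny Smith.

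The members on chromosomes 5 and 9 were not a few strong genes. On chromosome 9 the highest were MD09G1057500, with 6.78, 9.65 and 3.12 FPKM in Granny Smith and 0 reads in Jonagold, and MD09G1112800, with 4.57, 7.51 and 5.69 FPKM in Granny Smith and 3 reads in Jonagold. On chromosome 5 only MD05G1258200 exceeded 10 FPKM in every Granny Smith library. Next to it in level came MD05G1207100, with 5.27, 4.58 and 5.27 FPKM in Granny Smith and 0 reads in Jonagold. These genes were named for their chromosome after their values were seen.

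Most members lay alone. Members are 0.296% of all genes, and 259 of the 46420 other genes had a member beside them. Among the members, 16 of the 138 (11.6%) had another member as the preceding or following gene. They formed 8 pairs, and no run of 3 or more occurred. Another member lay within 5 genes of 24 members and within 20 genes of 38, and no chain of 3 members was found in which each lay within 20 genes of the next. The distance to the nearest other member had a median of 91.5 genes. Of the 332 genes expressed in Jonagold only, 71 (21.4%) lay in such a run, and the longest had 3 genes. A Jonagold-only gene lay beside 2 members (1.45%), against 1.26% of all genes.

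**Figure D3:**
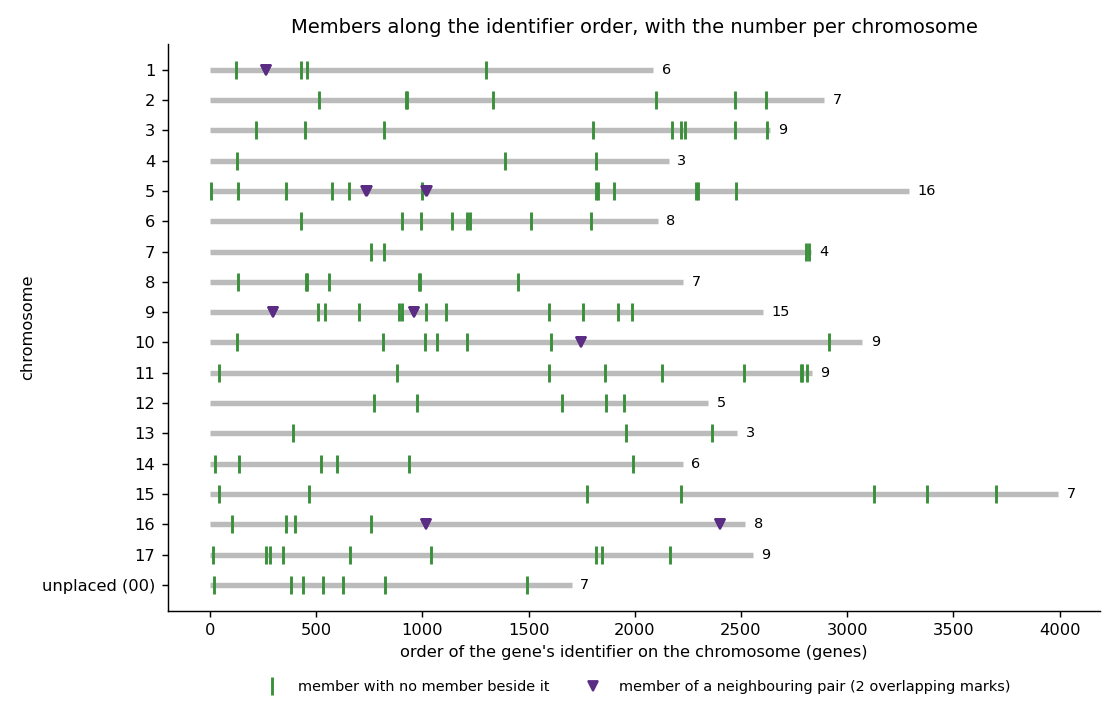
Position of each member in the order of identifiers on its chromosome (horizontal axis, in genes), with 1 line per chromosome, the unplaced genes at the bottom and the number of members at the end of each line. Ticks are the 122 members with no member beside them, and triangles mark the 8 pairs, on chromosomes 1, 5, 9, 10 and 16.

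The 8 pairs are described here as positions, and were singled out after their values were seen. In 6 of the 8 pairs neither member had a Jonagold read. In 7 pairs the members' means in Granny Smith were within 2-fold of each other. The highest library was the same for both members in 3 of the 8 pairs, so a shared position did not always come with a shared order of the libraries.

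The strongest pair was on chromosome 1. MD01G1037900 had 7.26, 8.72 and 8.71 FPKM in Granny Smith, against 0, 0.0824 and 0 in Jonagold, beside MD01G1037800 at the values given above. The gene before the pair, MD01G1037700, was high in both cultivars, at 193, 259 and 196 FPKM in Granny Smith and 77.8, 104 and 81.4 FPKM in Jonagold. It was called higher in Granny Smith, by limma at a log2 fold change of 1.29 (SE 0.16, adjusted p = 3.2e-04). The gene after the pair, MD01G1038000, went the other way, at 0.0517, 0.148 and 0.0487 FPKM in Granny Smith and 4.70, 8.51 and 6.63 FPKM in Jonagold. It was called lower in Granny Smith, by limma at a log2 fold change of -2.78 (SE 0.20, adjusted p = 1.7e-05), the largest fall on this scale among the tested genes beside members. A stretch of 4 genes thus held a gene high in both cultivars but higher in Granny Smith, a pair seen in Granny Smith and a gene seen mainly in Jonagold.

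On chromosome 10, MD10G1196900 had 5.82, 4.62 and 4.37 FPKM in Granny Smith and 0 in Jonagold. Its neighbour MD10G1197000 had 2.21, 3.81 and 3.46 FPKM in Granny Smith and 0 in Jonagold. The following gene, MD10G1197100, missed the rule with a Jonagold mean of 0.0630 FPKM, which rested on 3 reads, and had 3.85, 2.60 and 3.36 FPKM in Granny Smith, against 0, 0.121 and 0.0684 in Jonagold. Its recovered length of 1071 bases was the same as that of MD10G1196900. The genes further out on both sides were at or next to 0 in all 6 libraries, so these 3 genes stood alone. Where gene copies are nearly identical, reads may be split between them, and how the authors counted such reads is not given in the sources used here.

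Chromosome 9 held a pair of short transcripts that varied together. MD09G1031300 had 2.53, 2.27 and 4.31 FPKM in Granny Smith and 0 in Jonagold. MD09G1031500 had 3.35, 2.13 and 6.52 FPKM in Granny Smith and 0 in Jonagold. The next gene, MD09G1031700, had 0.516, 0.329 and 0.971 FPKM in Granny Smith, against 0, 0.0553 and 0 in Jonagold. All of them were highest in Granny Smith 3 and lowest in Granny Smith 2. The other pair on this chromosome was weaker: MD09G1106100 had 2.36, 2.39 and 2.13 FPKM in Granny Smith, and MD09G1106200 rested on 5, 6 and 4 reads in Granny Smith, with 0 reads in Jonagold for both.

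Chromosomes 5 and 16 held 2 pairs each. MD05G1086000 and MD05G1086100 averaged 4.70 and 1.38 FPKM in Granny Smith, the largest difference within a pair (3.40-fold). MD05G1118200 had 1.65, 2.15 and 1.79 FPKM in Granny Smith, and MD05G1118300 had 2.86, 2.36 and 2.37 FPKM. None of these 4 genes on chromosome 5 had a Jonagold read. MD16G1110100 had 2.29, 2.30 and 2.27 FPKM in Granny Smith, against 0, 0 and 0.0878 in Jonagold, and MD16G1110200 had 2.42, 3.10 and 2.94 FPKM in Granny Smith, against 0, 0.109 and 0 in Jonagold. MD16G1273000 had 2.79, 1.74 and 2.30 FPKM and MD16G1273100 had 2.28, 2.97 and 2.29 FPKM in Granny Smith, both at 0 in Jonagold.

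Some of the genes just outside the pairs resembled them. Of the 16 genes beside a pair, 4, counted by limits set after their values were seen, had at least 5 reads in every Granny Smith library and at most 3 reads over the Jonagold libraries. These were MD10G1197100 and MD09G1031700, already given, MD05G1085900 with 6, 6 and 7 reads in Granny Smith and 0 in Jonagold, and MD09G1106300 with 8, 13 and 23 reads in Granny Smith and 0, 0 and 2 in Jonagold. A further 3 of the 16 were at 0 in all 6 libraries. The share of all genes within these limits was not counted, so 4 of 16 is a description.

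**Figure D4:**
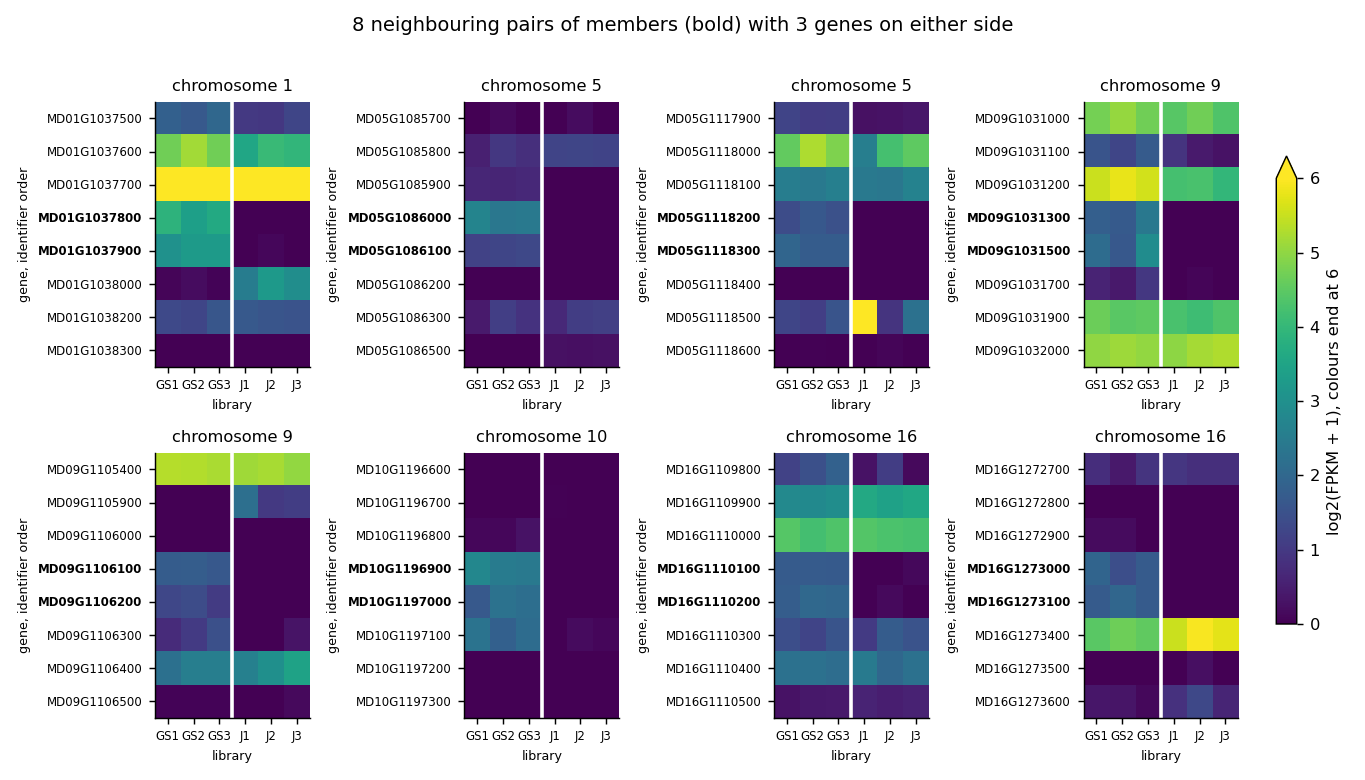
Level of the members of each of the 8 pairs (bold) and of 3 genes on either side, in identifier order down the page, as log2(FPKM + 1) in colour, with the Granny Smith libraries (GS1 to GS3) left of the Jonagold libraries (J1 to J3). The bold rows are coloured on the left and dark on the right, while most flanking genes are dark throughout or coloured on both sides.

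Values of genes beside members were not used by the rule, so their difference between the cultivars could be tested. Beside the members lay 259 genes that were not members, unplaced genes included, and these neighbours were not counted without the unplaced genes. Of these, 47 (18.1%) were at 0 in all 6 libraries, against 26.5% of all other genes. At least 1 FPKM was reached in every Granny Smith library by 40.5% and in every Jonagold library by 35.5% of them, where the shares over all other genes were 40.5% and 41.0%. For the test, limma was fitted on log2(FPKM + 1) to all genes that averaged 1 FPKM or more over the 6 libraries, and a gene was called at an adjusted p below 0.05 and a change of at least 2-fold.

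Of the 115 neighbouring genes tested, 27 (23.5%) were called higher in Granny Smith, against 9.34% of all genes tested. Called lower in Granny Smith were 12 of the 115 (10.4%), against 12% of all genes tested. The median log2 fold change was 0.18 over the neighbours and 0.00 over all genes tested. The 27 genes lay beside 27 different members, none of which had a called gene on both sides in this direction. In all 27 the Granny Smith libraries did not overlap the Jonagold libraries. The share without overlap over all genes called higher was not counted, so nothing is read from this. No test of the share itself was made, and the share is a description.

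The excess faded with distance. At 2 genes from the nearest member 17 of 127 tested genes (13.4%) were called higher in Granny Smith, at 3 genes 11 of 116 (9.48%), at 4 genes 7 of 115 (6.09%) and at 5 genes 11 of 102 (10.8%). At 6 to 10 genes it was 48 of 513 (9.36%). The share called lower in Granny Smith moved between 9.80% and 16.5% over these distances, with no order. The mirrored count was of the same kind: of 250 tested genes beside Jonagold-only genes, 85 (34.0%) were called lower and 14 (5.60%) higher in Granny Smith.

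A gene near silence in Jonagold reaches the test only through its Granny Smith level, so the neighbours were also counted among genes that averaged 1 FPKM or more in Granny Smith and also in Jonagold, an alternative chosen after seeing the data. Of the 90 neighbours left, 15 (16.7%) were called higher in Granny Smith, against 6.83% of 18414 such genes. Called lower were 5 of the 90 (5.56%), against 8.48%. The called neighbours were therefore in part genes that both cultivars expressed.

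**Figure D5:**
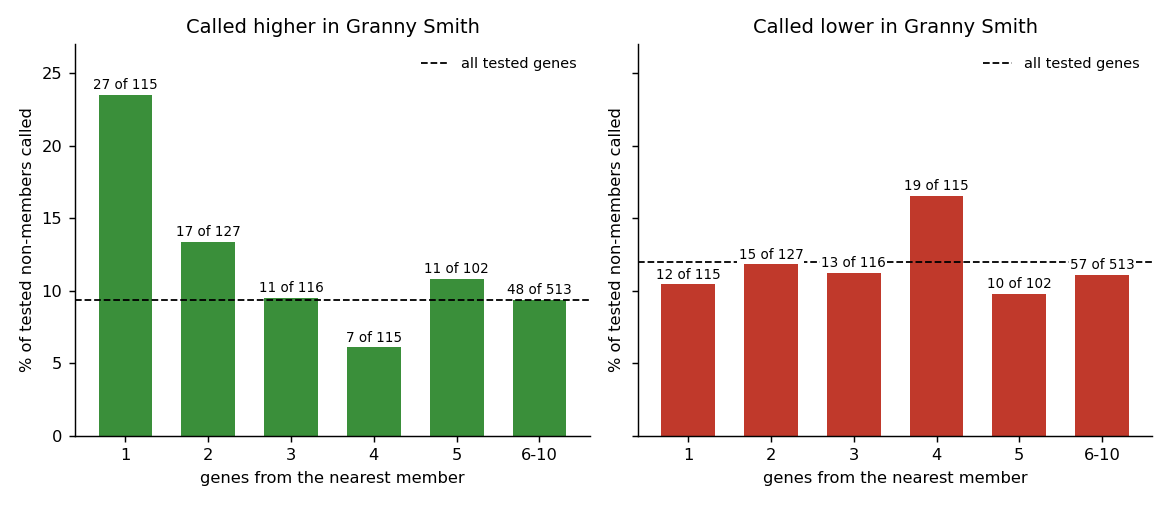
Percent of tested genes that are not members (vertical axis, bars from 0) called higher in Granny Smith (left) or lower in Granny Smith (right), by the number of genes to the nearest member, with counts above the bars. The dashed lines are the shares over all 20993 tested genes, 9.34% and 12%, and the bar for 27 of 115 genes directly beside a member stands at 23.5%.

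On the log2(FPKM + 1) scale, the neighbour with the largest rise was MD05G1205800 on chromosome 5. It had 98.0, 70.7 and 75.9 FPKM in Granny Smith, against 6.57, 3.48 and 3.29 FPKM in Jonagold, a log2 fold change of 3.96 (SE 0.23, limma, adjusted p = 5.3e-06). The member beside it, MD05G1205900, was far lower, with 2.90, 2.49 and 1.82 FPKM in Granny Smith and 0 reads in Jonagold. Whether these gene models overlap, so that reads of the abundant gene could be counted for both, was not tested, since their coordinates were not used here. The strand setting of the counting is not given in the sources used here.

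The second on this scale was MD15G1414000 on chromosome 15, with 12.8, 15.7 and 13.9 FPKM in Granny Smith, against 0, 0.273 and 0.232 FPKM in Jonagold, a log2 fold change of 3.70 (SE 0.16, limma, adjusted p = 1.3e-06). The order of these neighbours depended on the pseudocount: with 0.1 in place of 1, the log2 fold change was 5.94 for MD15G1414000 and 4.22 for MD05G1205800. MD15G1414000 followed MD15G1413900, one of the 12 most abundant members, at about the same level. These 2 genes made the most abundant stretch of neighbours that was near silent in Jonagold among those named here.

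In the other direction, MD05G1116100 on chromosome 5, beside MD05G1116000, came after MD01G1038000. It was listed at 0 in each Granny Smith library, against 4.57, 5.26 and 4.34 FPKM in Jonagold, a fitted log2 fold change of -2.51 (SE 0.15, limma, adjusted p = 5.8e-06). The member MD05G1116000 itself had 2.27, 2.68 and 2.64 FPKM in Granny Smith and 0 in Jonagold. At a pseudocount of 0.1 the log2 fold change was -5.59 for MD05G1116100 and -5.20 for MD01G1038000, so the order of these falls depended on it too. Genes seen in 1 cultivar only, of opposite sides, thus lay next to each other here.

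One called neighbour belonged to an aroma pathway, and was singled out after its values were seen. MD10G1013900, which the study names MdADH-6, is listed as an alcohol dehydrogenase, an enzyme type that interconverts aldehydes and alcohols. The study's table gives this gene higher values under the same unit than the deposited ones used here. In the deposited values the gene had 16.5, 27.2 and 20.5 FPKM in Granny Smith, against 4.32, 1.47 and 1.73 FPKM in Jonagold. Its log2 fold change was 2.74 (SE 0.30, limma, adjusted p = 1.4e-04). The member after it, MD10G1014000, had 1.41, 2.196 and 1.26 FPKM in Granny Smith and 0 reads in Jonagold, and overlap of the gene models was not tested here either.

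Among the most abundant members, MD04G1164500 had a called neighbour as well, named after its values were seen. MD04G1164600 had 12.2, 9.72 and 9.96 FPKM in Granny Smith, against 88.5, 42.7 and 34.6 FPKM in Jonagold (log2 fold change -2.16, SE 0.30, limma, adjusted p = 0.00057). The gene before MD06G1133900, MD06G1133700, had 25.4, 28.5 and 25.3 FPKM in Granny Smith, against 10.8, 14.0 and 11.1 FPKM in Jonagold (log2 fold change 1.09, SE 0.13, limma, adjusted p = 0.00022). Abundant members thus had neighbours that moved in either direction.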

How the data were processed

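The deposited values are FPKM per gene and library. The authors describe them as made from filtered paired-end reads mapped to the GDDH13 apple genome and quantified with Cufflinks. Whether that tool gives values in steps of whole reads, as found here, was not tested. The submitters' processing notes name Bowtie together with mouse genome builds, which cannot apply to apple, so they were set aside, and the mapping settings are not given in the sources used here. All 6 libraries were used. Reads and lengths were recovered from the steps of the FPKM values, up to a divisor shared by a gene's libraries. Python 3.11.15 with pandas 2.3.3 and R 4.3.3 with limma 3.58.1 (trend, Benjamini-Hochberg over all 20993 genes tested) were used, with a pseudocount of 1, and tests were checked on simulated data. Folds are Granny Smith over Jonagold at the library scaling of the FPKM values. Replicates are the study's pooled samples. Members and lists were chosen with earlier results of these data known. Genes named are the 12 most abundant members, the most and least even, those at the thresholds, those with most Jonagold reads, and the tested neighbours with the 2 largest and 2 lowest changes; others are said to be named after their values were seen. Identifiers matched 0 entries of the symbol table at hand, made for another assembly, so no sequence is shown, and the 1 gene name printed comes from the study's tables. Alternatives changed the thresholds, the scaling, the test's settings and the libraries used.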

Additional observations from a re-analysis of the deposited data

How the results depend on the processing

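The number of members followed the thresholds. It was 276 with a Granny Smith minimum of 0.5 FPKM, 73 with 2 FPKM, 88 with 0 FPKM required in every Jonagold library and 229 with at most 3 reads in every Jonagold library, and it was between 141 and 176 with 1 library left out. With every library left out in turn, 123 of the 138 members were kept each time. Members beside another member numbered 30, 8 and 25 under the minimum of 0.5 FPKM, the minimum of 2 FPKM and the limit of 3 reads, 29 with a Jonagold ceiling of 0.1 FPKM, and between 16 and 24 with 1 library left out. Neighbouring genes called higher in Granny Smith numbered 13 of 115 when the test itself asked for more than 2-fold, where 3.74% of all genes were called, and 44 within 2 and 73 within 5 genes of a member. They numbered between 24 and 29 with 1 library left out. Genes called between the cultivars numbered 4475, against 10371 with no fold criterion, 2066 with a test beyond 2-fold and between 4346 and 4607 with 1 library left out. With equal FPKM totals the median log2 fold change over all genes was 0.35, and the calls were 3426 higher and 1772 lower in Granny Smith, in place of 1960 higher and 2515 lower, with 30 neighbours called higher, where 16.3% of all genes were. The 4 tested neighbours named by rule kept direction and call in every fit, but with a pseudocount of 0.1 the log2 fold changes of MD15G1414000, MD05G1116100 and MD01G1038000 were 5.94, -5.59 and -5.20, in place of 3.70, -2.51 and -2.78, and their order changed. The few reads behind short members limit what their zeros in Jonagold can show.

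Deviations of libraries with the same replicate number correlated at 0.16, 0.28 and -0.03 between the cultivars, so the numbers were not taken as pairing. With the replicate number as a block, 28 neighbours and 4501 genes were called. Both totals stayed within 1.5 times those without the block.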
